A study of Mus musculus with 2 samples.

Results

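The 42 genes described here encode the enzymes that remove superoxide and peroxides, the thioredoxin and glutathione systems that reduce them back, the transcription factor NRF2 with its regulators, and the NADPH oxidases that make reactive oxygen. They were chosen by name, and all 42 were found among the 37067 gene names of a mouse expression array. The comparison was between 2 samples of cochlear RNA, from C57BL/6 mice, an inbred laboratory strain, that were female and 7 weeks old. The noise sample came from cochleae dissected 3 hours after a 2-hour exposure to intense noise, and the baseline sample from mice that had no noise exposure. Each group had 1 array, so that every difference below lies between 2 RNA samples and none has a replicate error or a p-value. The number of mice behind each sample is not given in the sources used here.

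Reactive oxygen is a long-studied companion of acoustic trauma. Superoxide dismutases turn superoxide into hydrogen peroxide, which catalase, glutathione peroxidases and peroxiredoxins break down. Peroxiredoxins are then reduced by thioredoxin and glutathione peroxidases by glutathione, both at the cost of NADPH. NRF2, held down by the adaptor KEAP1, is the transcription factor best known for raising many of these genes under oxidative or electrophilic stress.

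All 18 cochlear marker genes, among them Coch, Otos, Slc26a4 and Otof, were well above background on both arrays. This could not test the labelled tissue, because 75.3% of all probes met that criterion after noise and 75.2% at baseline. All 12 adipocyte and all 10 skeletal muscle markers met it as well. Brightness is given as processed signal, which is background-subtracted, linear and unscaled, and its 75th percentile was 316 after noise and 278 at baseline. Signals are given unscaled below, and log2 ratios, noise minus baseline, after each array was divided by its 75th percentile. Equal signals on both arrays therefore correspond to a log2 ratio below 0. The gene's value is the median over its probes that were well above background on both arrays. An error quoted as "scanner error" is the scanner software's own technical error of the log2 ratio, which was 0.21 for the median gene. For bright spots it is set by a proportional term preset in the software, per the file headers, and it says nothing of the spread between animals. Repeat spots of the same probe gave a smaller SD of the ratio, 0.069. Different probes of the same gene differed with an SD of 0.27 over the 9348 genes that had 2 or more measured probes.

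None of the 42 genes reached a 2-fold difference, and none reached 1.5-fold, in either direction. Over all 26528 genes measured on both arrays, 1.86% were past 2-fold (0.611% higher after noise and 1.25% lower) and 8.01% past 1.5-fold (3.02% higher and 4.99% lower). The members ran from a log2 ratio of -0.33 for Nox3, the NADPH oxidase of the inner ear, to 0.49 for Srxn1, the sulfiredoxin that repairs over-oxidised peroxiredoxins. Of all genes, 81.5% lay within that range. Class medians ran from -0.17 for the thioredoxins and their reductases to 0.15 for NRF2 and its regulators. Between these were glutathione peroxidases at -0.11, quinone and thiol repair enzymes at -0.023, peroxiredoxins at -0.0041 and superoxide dismutases at 0.0011. NADPH supply stood at 0.040, NADPH oxidases at 0.070, glutaredoxins at 0.078, glutathione synthesis and recycling at 0.11 and catalase, 1 gene, at 0.14. The median of the members was 0.036, against -0.014 for all genes, and 25 of the 42 lay above 0, against 47.5% of all genes. Of the members, 29 were within 1 scanner error of 0, 6 were further above and 7 further below. Over all genes, 61.0% were within 1 scanner error of 0. Past 2 scanner errors stood only Srxn1 and Gsr, both higher after noise, where 5.61% of all genes were past that size upward and 7.72% downward.

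**Figure D1:**
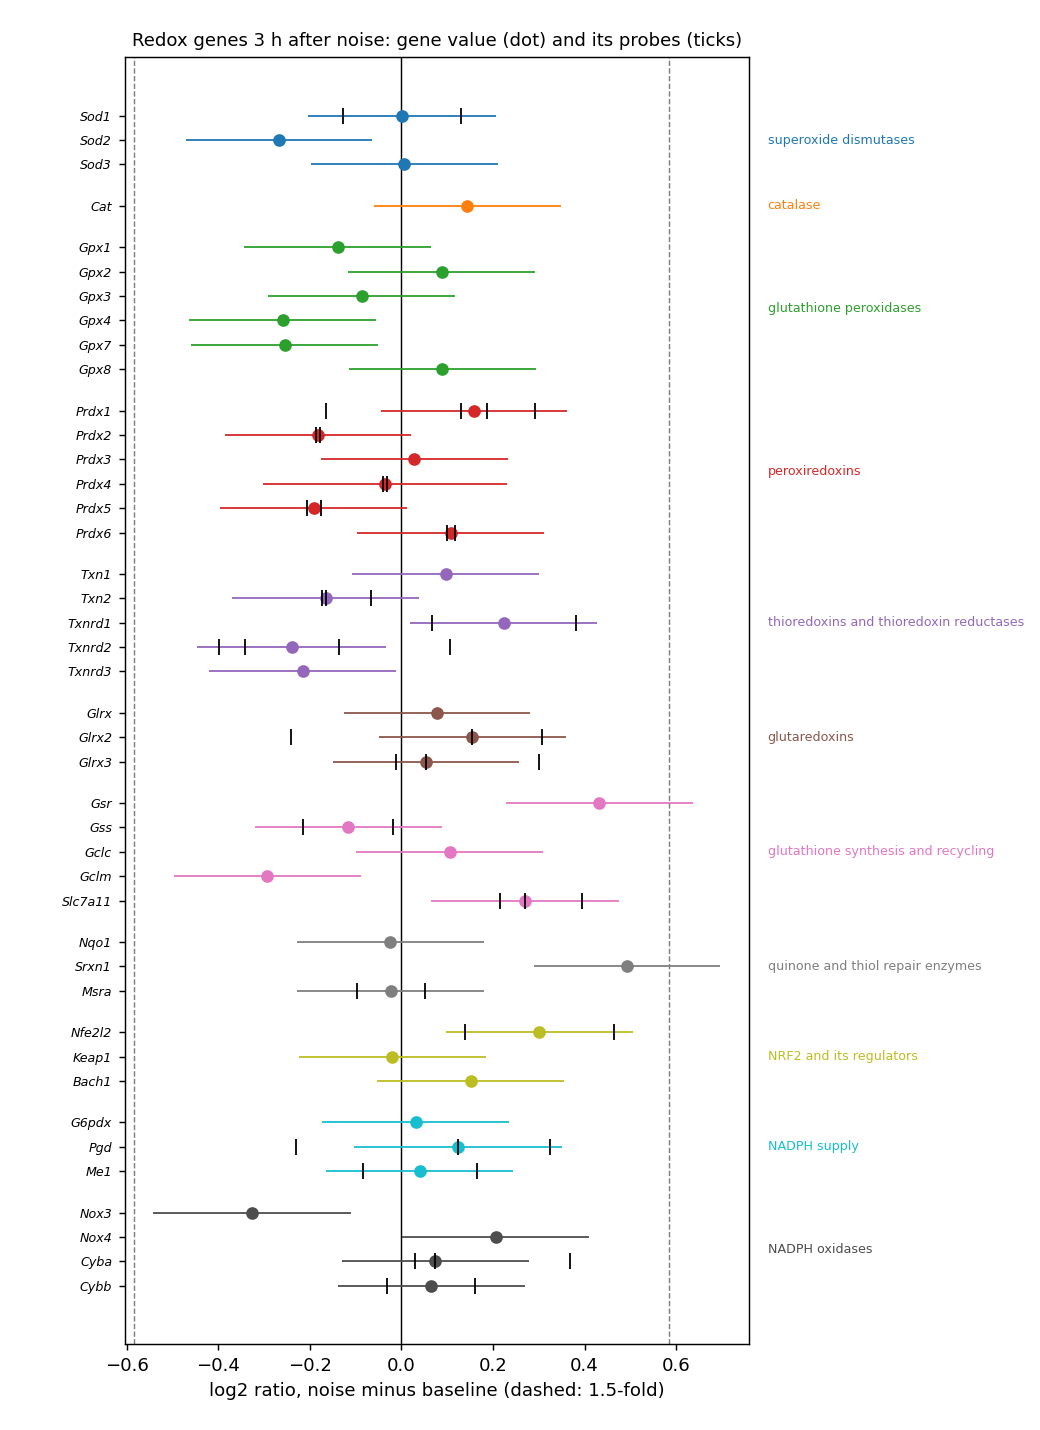
Log2 ratio (noise minus baseline, x axis) of each of the 42 genes, grouped and coloured by class. Dots are gene values, bars 1 scanner error to each side and black ticks the single probes of genes with several measured probes. Every dot lies between -0.33 (Nox3) and 0.49 (Srxn1), inside the dashed lines at 1.5-fold.

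**Figure D2:**
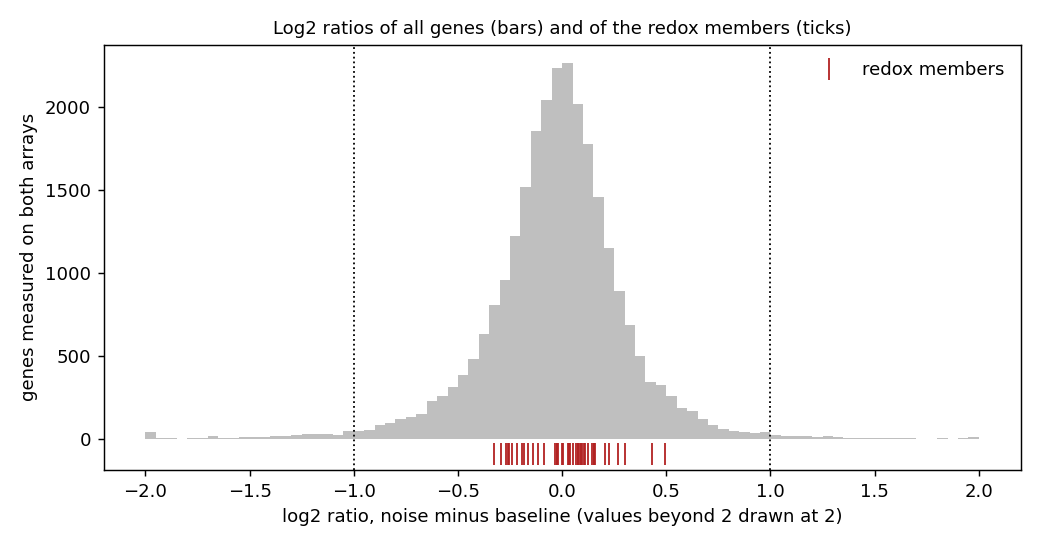
Histogram of log2 ratios (noise minus baseline) of the 26528 genes measured on both arrays, with counts on the y axis, dotted lines at 2-fold, and values beyond 2 drawn at 2. The red ticks under the bars are the 42 members, which all lie in the central body of the distribution, from -0.33 to 0.49.

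The 42 genes were read by 78 probes of 60 bases, of which 71 were well above background on both arrays and 7 on neither. A single measured probe stood behind 23 of the genes, among them Srxn1, Gsr, Gclm, Sod2 and Nox3. Of the 19 genes with 2 or more measured probes, 10 had all probes on the same side of 0 and 9 did not. For the genes at the ends of the range, the probes lie at the following mm9 positions, and the first 30 bases of each probe are shown, because each of these ratios rests on that oligo alone or, for Nfe2l2, on it and 1 other probe.
Srxn1 probe (chr2:151937009-151937068, + strand): gaagaatgtatgggaactctagtctctgca
Gsr probe (chr8:34808488-34808547, + strand): agccctttcttcttctgagtattcctggtt
Nfe2l2 probe (chr2:75513771-75513830, - strand): ctcaagttaatttcttaggcaccatttggg
Gclm probe (chr3:121967737-121967796, + strand): acctggcctcctgctgtgtgatgccaccag
Nox3 probe (chr17:3635312-3635371, - strand): tctgtggatccaaagccatgtcaaagactc

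The NRF2 gene itself was among the higher members. Nfe2l2, which encodes NRF2, had signals of 1573 after noise and 1004 at baseline on the probe of its RefSeq mRNA, a log2 ratio of 0.46. A second probe, of another Ensembl transcript, gave 105 and 84.1, a ratio of 0.14, and the gene value was 0.30 (scanner error 0.20). Both probes were thus higher after noise, by different amounts. Keap1, its cytosolic inhibitor, was near 0 with signals of 980 and 876 and a ratio of -0.020, and Bach1, a repressor that competes at the same DNA elements, was at 0.15 (543 and 431).

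Genes taught as NRF2 targets ran from -0.29 for Gclm to 0.49 for Srxn1. Srxn1 had the highest ratio, with signals of 3480 after noise and 2178 at baseline and a ratio of 0.49 (scanner error 0.20), a 1.41-fold difference. A ratio at or above this was found in 4.67% of all genes. Gsr, glutathione reductase, which returns oxidised glutathione to its reduced form, followed at 0.43, with signals of 4094 and 2672. Slc7a11, the subunit of the cystine importer that feeds glutathione synthesis, was at 0.27, and its 3 measured probes lay between 0.22 and 0.39. The probe signals for Slc7a11 were 94.7, 259 and 41.5 after noise against 69.2, 196 and 27.8 at baseline, in the same order. Each of these genes was higher on the noise array with every measured probe.

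Among the 13 members counted as NRF2 targets, Nqo1 and Gclm were those below 0. Nqo1, the quinone reductase often used as the readout of NRF2, had signals of 197 and 177 and a ratio of -0.025. Gclm, the modifier subunit of the enzyme that limits glutathione synthesis, was the second lowest member of all 42 at -0.29, with 1721 after noise and 1857 at baseline. Its catalytic partner Gclc was at 0.11 (1575 and 1290). The subunits of that enzyme thus lay on opposite sides of 0, Gclm at -1.44 scanner errors and Gclc within 1. Gss, which completes glutathione and was not counted among the targets, was at -0.12, with probes at -0.21 and -0.018. Counting the 13 members that are textbook NRF2 targets, a set drawn up after the values were seen, 11 lay above 0 with a median of 0.11, and the 29 others had 14 above 0 and a median of -0.020. The set's median was above the median of all genes in every processing alternative run. All alternatives reuse the same arrays, whose values were known when the set was drawn up. Agreement between alternatives therefore could not test whether the set differs from other genes.

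Promoters were searched for the core of the antioxidant response element, the DNA element bound by NRF2 with a small MAF protein, in the 250 bases before each annotated start (RefSeq, assembly GRCm38.p6). The letters were TGACNNNGC on either strand. A RefSeq promoter was held for 37 of the 42 genes, in 48 windows, and a match stood in 6 of these windows (12.5%), each of a different gene, against 10.2% of all 32851 windows. The AP-1 site TGANTCA, which can overlap that core, was present in 5 member windows (10.4%) and in 6.75% of all windows. Of those 5, 2 are overlapping windows of Glrx that hold the same site, so that 4 genes had a match. The 6 genes with a match were Sod1, Prdx1, Txnrd1, Gclm, Nfe2l2 and G6pdx, whose ratios ran from -0.29 to 0.30, with 5 above 0. Of these, Sod1 at 0.0011 and G6pdx at 0.031 were close to 0. The 31 genes with a window and no match had 16 above 0. The 5 genes without a window had 4 above 0. Medians were 0.095 with a match, 0.028 without a match and 0.11 without a window.

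These windows are shown for the highest member, for NRF2's own gene, and for 2 targets whose ratios lay on opposite sides of 0. Capitals mark the bases of either motif.
Srxn1 (chr2:152105274-152105523, + strand): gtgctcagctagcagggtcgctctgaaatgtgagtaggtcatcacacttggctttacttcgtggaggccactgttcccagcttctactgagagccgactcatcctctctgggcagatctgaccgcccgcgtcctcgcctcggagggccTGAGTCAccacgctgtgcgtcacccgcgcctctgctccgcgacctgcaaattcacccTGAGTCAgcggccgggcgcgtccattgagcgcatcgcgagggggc
Nfe2l2 (chr2:75704664-75704913, - strand): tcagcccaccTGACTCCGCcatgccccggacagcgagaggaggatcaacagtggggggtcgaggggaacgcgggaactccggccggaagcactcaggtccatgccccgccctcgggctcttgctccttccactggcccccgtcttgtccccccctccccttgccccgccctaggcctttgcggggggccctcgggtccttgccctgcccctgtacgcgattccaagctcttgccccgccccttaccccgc
Prdx1 (chr4:116685349-116685598, + strand): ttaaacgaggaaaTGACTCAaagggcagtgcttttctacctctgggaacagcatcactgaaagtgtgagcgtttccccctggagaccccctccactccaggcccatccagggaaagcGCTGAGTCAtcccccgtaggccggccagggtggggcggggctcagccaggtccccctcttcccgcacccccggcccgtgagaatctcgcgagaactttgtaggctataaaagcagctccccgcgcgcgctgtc
Gclm (chr3:122245307-122245556, + strand): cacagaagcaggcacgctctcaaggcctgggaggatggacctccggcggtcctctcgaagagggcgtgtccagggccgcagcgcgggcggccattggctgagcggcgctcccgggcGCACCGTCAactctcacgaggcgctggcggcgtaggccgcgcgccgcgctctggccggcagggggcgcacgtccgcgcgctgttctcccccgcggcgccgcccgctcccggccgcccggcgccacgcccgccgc
The Srxn1 window holds 2 AP-1 matches, beginning 102 and 45 bases before the start, and no match to the longer core as lettered here. The match beginning at 45 reads on as TGAGTCAgc, which differs from the core letters by a G in place of the C. Other spellings of the element, and bases further than 250 before the start, were not searched. In the Prdx1 window a core match, read on the opposite strand as TGACTCAGC, overlaps an AP-1 match, and a further AP-1 match begins 237 bases before the start. The Gclm match, TGACGGTGC on the opposite strand, and the Nfe2l2 match, TGACTCCGC, overlap no AP-1 match. A match of letters is a description of the window only.

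Among the thioredoxin genes, the cytosolic and mitochondrial members lay on opposite sides of 0. Txn1, the cytosolic thioredoxin, was at 0.097 with signals of 5896 and 4857. Txn2, its mitochondrial counterpart, was at -0.17, its brightest probe having signals of 4394 and 4052 and its 3 measured probes lying between -0.17 and -0.066. The reductases that recharge them with electrons from NADPH differed more. Txnrd1, the cytosolic enzyme, was at 0.22, and its probes gave 0.38 (546 and 369) and 0.066 (1792 and 1507). Txnrd2, the mitochondrial enzyme, was at -0.24, and its RefSeq mRNA probes gave -0.40 (1368 after noise and 1588 at baseline) and -0.14 (47.7 and 46.2). Probes of other Txnrd2 transcripts lay on both sides of 0, at -0.34 (17.0 and 19.0) and 0.11 (399 and 327). Txnrd3, a thioredoxin and glutathione reductase best known from testis, was at -0.22 (335 and 343). The class median of -0.17 was above 0 (0.0081) with spike-in scaling and below 0 under the other alternatives.

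Superoxide dismutases showed no common direction. Sod1, the cytosolic copper-zinc enzyme, was at 0.0011, the midpoint of a probe of its RefSeq mRNA at -0.13 (18465 and 17761) and a probe of another cDNA at 0.13 (116 and 93.7). With its brightest probe or with RefSeq mRNA probes alone, Sod1 was at -0.13. Sod2, the mitochondrial manganese enzyme that inflammatory signals are known to raise in many cells, was at -0.27, with 987 after noise and 1046 at baseline. Sod3, the extracellular enzyme, was at 0.0062 (1437 and 1261). Catalase (Cat), the peroxisomal peroxide-degrading enzyme, was at 0.14 (911 and 727). All of these except Sod2 lay within 1 scanner error of 0.

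Mitochondrial and cytosolic enzymes of the same family were set side by side, a comparison chosen after the values were seen. In 4 of 5 pairs the cytosolic gene had the higher ratio. In those 4 it did so under every processing alternative, all of which reuse the same 2 arrays. The count depends on the partner chosen, since Prdx2, also cytosolic, was at -0.18, below Prdx3 at 0.028. The cytosolic ratio exceeded the mitochondrial by 0.46 for thioredoxin reductase (Txnrd1 and Txnrd2), 0.27 for superoxide dismutase (Sod1 and Sod2), 0.26 for thioredoxin (Txn1 and Txn2) and 0.13 for peroxiredoxin (Prdx1 and Prdx3). At their lowest over the alternatives these differences were 0.40, 0.14, 0.16 and 0.083, in the same order. The scanner error of such a difference was 0.29, so that only the thioredoxin reductase pair exceeded it. For glutaredoxin the order was the other way, by -0.077 (Glrx and Glrx2), and it turned in 6 of 12 alternatives. Over the 5 mitochondrial members the median was -0.17, or 0.0081 with spike-in scaling. Over their 5 cytosolic counterparts it was 0.097, or 0.27 with spike-in scaling.

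Glutathione peroxidases lay on both sides of 0. The lowest were Gpx4, which protects membrane lipids from peroxidation, at -0.26 (12082 after noise and 12739 at baseline), and Gpx7, a peroxidase of the endoplasmic reticulum, at -0.26 (261 and 274). Gpx1, the ubiquitous cytosolic form, was at -0.14 (19959 and 19364), and Gpx3, the secreted form, at -0.087 (5272 and 4932). Above 0 stood Gpx2, first known from gut epithelium, at 0.088 (8445 and 6998), and Gpx8, also of the endoplasmic reticulum, at 0.090 (2067 and 1711). Each was read by 1 probe. The class median was -0.11, and with spike-in scaling it was 0.061. Of the 6 genes, 4 lay below 0, where 47.5% of all genes lay above 0. A further split, outside the planned comparisons, took the 7 members that carry selenocysteine (Gpx1 to Gpx4 and the 3 thioredoxin reductases). Of these 7, 5 lay below 0, with a median of -0.14, or 0.034 with spike-in scaling. The 35 other members had a median of 0.054. Spike-in scaling raises that median by the same 0.17, so that the distance between the sets is unchanged. Other selenoprotein genes, none of them members, lay on both sides of 0, with Msrb1 at 0.24, Sepp1 at 0.15 and Sepw1 at -0.18.

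Peroxiredoxins, the abundant thiol peroxidases, divided evenly, 3 above 0 and 3 below. Prdx1, a cytosolic form and an NRF2 target, was highest at 0.16; its RefSeq mRNA probes gave 0.13 (903 and 727), 0.29 (4158 and 2991) and 0.19 (12932 and 10004), and a dim probe of another transcript -0.16 (14.8 and 14.7). Prdx6, the form with a single catalytic cysteine, was at 0.11, with its probes at 0.099 and 0.12, and mitochondrial Prdx3 at 0.028 (1516 and 1310). Below 0 were Prdx5 at -0.19 (20328 and 20239 on one probe, 7042 and 7155 on the other), Prdx2, a main peroxidase of red cells, at -0.18 (2196 and 2189, 9140 and 9160), and Prdx4 of the endoplasmic reticulum at -0.036. For Prdx2, Prdx5 and Prdx6 the probes of each gene agreed to within 0.03. Msra, which repairs oxidised methionine, was at -0.023 with probes at -0.097 and 0.050.

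Glutaredoxins, which remove glutathione from protein thiols, were all 3 slightly above 0. Glrx was at 0.078 (425 and 355) and Glrx3 at 0.054, with probes from -0.012 to 0.30. The 3 measured probes of Glrx2 ran from -0.24 to 0.31, a spread close to that of Pgd, the widest among the members. Its 2 RefSeq mRNA probes disagreed in sign, one at 0.15 (1624 and 1285) and one at -0.24 (105795 and 110140), so that the gene value of 0.15 became -0.24 with the brightest probe and -0.043 with RefSeq mRNA probes alone. The probe at -0.24 was the brightest of all member probes, and whether it also reads RNA of other genes was not tested.

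NADPH for both systems comes from the pentose phosphate pathway and malic enzyme. G6pdx, the first enzyme of the pentose phosphate pathway, was at 0.031 (2804 and 2416). Pgd, which makes NADPH downstream of it, was at 0.12, its RefSeq mRNA probe reading 2795 and 2261, with dim probes of other transcripts at 0.33 and -0.23. Me1, the cytosolic malic enzyme, was at 0.040 with probes at 0.16 and -0.085. All 3 were above 0 and within 1 scanner error of it. Mouse G6pdx has a close retrocopy, and whether its probe also reads that copy was not tested.

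On the producing side, the inner ear oxidase had the lowest ratio of the members. Nox3, needed for otoconia and the main oxidase of the inner ear, had dim signals of 28.3 after noise and 31.3 at baseline. Its ratio of -0.33 (scanner error 0.22) came from a single probe, and 13.8% of all genes lay at or below it. Nox4, a constitutively active oxidase that releases hydrogen peroxide, was at 0.21 from a single probe (146 and 112). That probe belongs to a separate Ensembl transcript, and neither of the 2 probes of Nox4 RefSeq mRNAs was well above background (3.27 and 3.84, 2.28 and 1.36). The level of Nox4 mRNA itself was therefore not measured. Without the filter on dim probes Nox4 was at 0.0044. Cyba, the p22phox subunit that stabilises several NADPH oxidases, was at 0.074, the value of a dim probe of another cDNA (37.1 and 31.0). Its RefSeq mRNA probes gave 0.029 (7884 and 6806) and 0.37 (1325 and 905). Cybb, the catalytic subunit of the phagocyte oxidase, was at 0.065, its probes giving 0.16 (374 and 294) and -0.031 (316 and 284).

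Macrophage and monocyte markers were nearly level beside Cybb and Cyba: 5 of 11 lay above 0, with a median of -0.087, which was 0.087 with spike-in scaling and 0.036 with the stricter filter on dim probes, and summed signals of 7684 after noise and 6840 at baseline. Ptprc, the pan-leukocyte gene CD45, was furthest above 0 at 0.26 and Aif1 furthest below at -0.24. Neutrophil markers had 9 of 11 above 0, with a median of 0.11, summed signals of 296322 and 263626, the chemokine receptor gene Cxcr2 at 0.82 and the protease gene Ctsg at 0.48. Other NADPH oxidases and their subunits and partners, none of them members, lay mostly above 0: 8 of 10 measured genes, with a median of 0.14 and none past 1.5-fold. Among the 10 were the dual oxidase gene Duox2 at 0.49, from a dim probe (29.6 and 18.5), and Noxo1, an organiser of the inner ear enzyme, at -0.28 (401 and 429). In whole tissue, more cells of a type and more RNA per cell cannot be told apart, and the part of leukocytes in these values was not tested.

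Beyond the members, the related genes gave 2 values past 2-fold, both in the list of 19 other NRF2 targets and small Maf partners. Hmox1, the inducible heme oxygenase, had signals of 1915 after noise and 95.1 at baseline, a log2 ratio of 4.15, and Maff, a small Maf protein, 240 and 72.4, a ratio of 1.55. The other 17 genes of that list stayed within 1.5-fold, with Abcc4 at 0.38, Mafk at 0.38 and Sqstm1 at 0.32 (probes from -0.0089 to 0.88) next. The list median was 0.087, with 12 above 0 and 7 below, the lowest being Cbr1 at -0.24.

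Glutathione S-transferases, which conjugate glutathione to electrophiles, had 7 of 21 measured genes above 0. Their median was -0.034, or 0.14 with spike-in scaling, and none was past 2-fold. Gsto2 was lowest at -0.62 (42.2 and 57.0), Gstt2 highest at 0.47 with probes at 0.16 and 0.78, and Mgst3 was at -0.36. Other thiol and selenium redox genes divided 8 and 8, with a median of -0.0068 and none past 1.5-fold. That list turned above 0 with median or spike-in scaling or the stricter filter on dim probes, and was widest at Ggt1 (-0.51, dim at 7.92 and 9.92), Ggt7 (0.26) and Msrb1 (0.24). Other NADPH suppliers had a median of -0.018, above 0 with median or spike-in scaling. In it the glucose-6-phosphate dehydrogenase of the endoplasmic reticulum, H6pd, was at 0.45 (322 and 207), the mitochondrial malic enzyme Me3 at -0.50 with probes from -0.61 to 1.07, and Idh1 at -0.045.

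**Figure D3:**
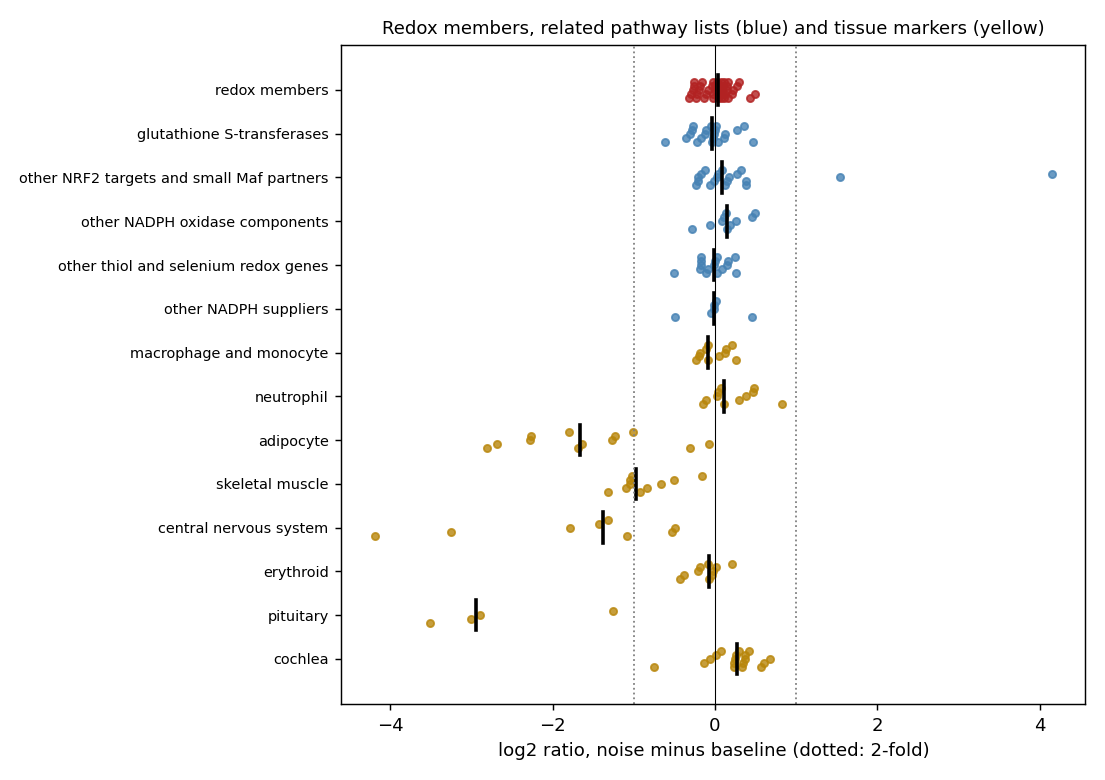
Log2 ratios (noise minus baseline, x axis) of the 42 members (red), of related pathway lists (blue) and of tissue marker lists (yellow). Each dot is 1 gene measured on both arrays, black bars are medians and dotted lines mark 2-fold. The members lie between -0.33 and 0.49, Hmox1 stands alone at 4.15, and adipocyte, muscle, central nervous system and pituitary markers lie well to the left.

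Markers of neighbouring tissues differed between the samples by far more than any member. Adipocyte markers were all below 0 (12 of 12, median -1.67, with 10 past 2-fold, Ucp1 at -2.81 and Cidea at -2.69), with summed signals of 7407 after noise and 25800 at baseline. Skeletal muscle markers (10 of 10 below 0, median -0.97), central nervous system markers (8 of 8 measured, median -1.38) and pituitary markers (4 of 4 measured, median -2.95) were also lower. Their most distant genes were Mb (-1.32) and Myh1 (-1.09) of muscle, Glra1 (-4.19) and Slc32a1 (-3.25) of the central nervous system, and Prl (-3.51) and Cga (-3.00) of the pituitary. Summed signals were 2615 and 4405 for muscle, 5336 and 11006 for the central nervous system and 1603 and 10710 for the pituitary. Slc6a5 and Neurod6 of the central nervous system and Tshb and Fshb of the pituitary were well above background at baseline alone, and the pituitary gene Pou1f1 in neither sample. Erythroid markers had a median of -0.077, or 0.097 with spike-in scaling, with 2 of 10 above 0, Klf1 at -0.44, Rhag at -0.38 and summed signals of 181952 and 176850. Cochlear markers had 15 of 18 above 0 and a median of 0.28, with Slc26a5 at -0.75 (5.62 and 8.35), Pou4f3 at 0.67, and summed signals of 55865 and 39632. How much of each member's ratio follows from these differences in dissected tissue was not tested.

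The sign of a member near 0 depended on the scaling. Spike-in scaling added 0.17 to every ratio, the median of all genes included, and put 33 of the 42 members above 0, but left 25 above the median of all genes, as with the scaling used here. Over 12 alternatives, 21 members were above 0 in each and 9 below 0 in each, and 12 changed sign in at least 1. Srxn1 ranged from 0.48 to 0.67, Gsr from 0.42 to 0.61 and Nfe2l2 from 0.27 to 0.48. At the other end Nox3 ranged from -0.33 to -0.15 and Gclm from -0.31 to -0.12. Measured against the median of all genes, 35 members stayed on the same side in every alternative, 22 above it and 13 below.

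**Figure D4:**
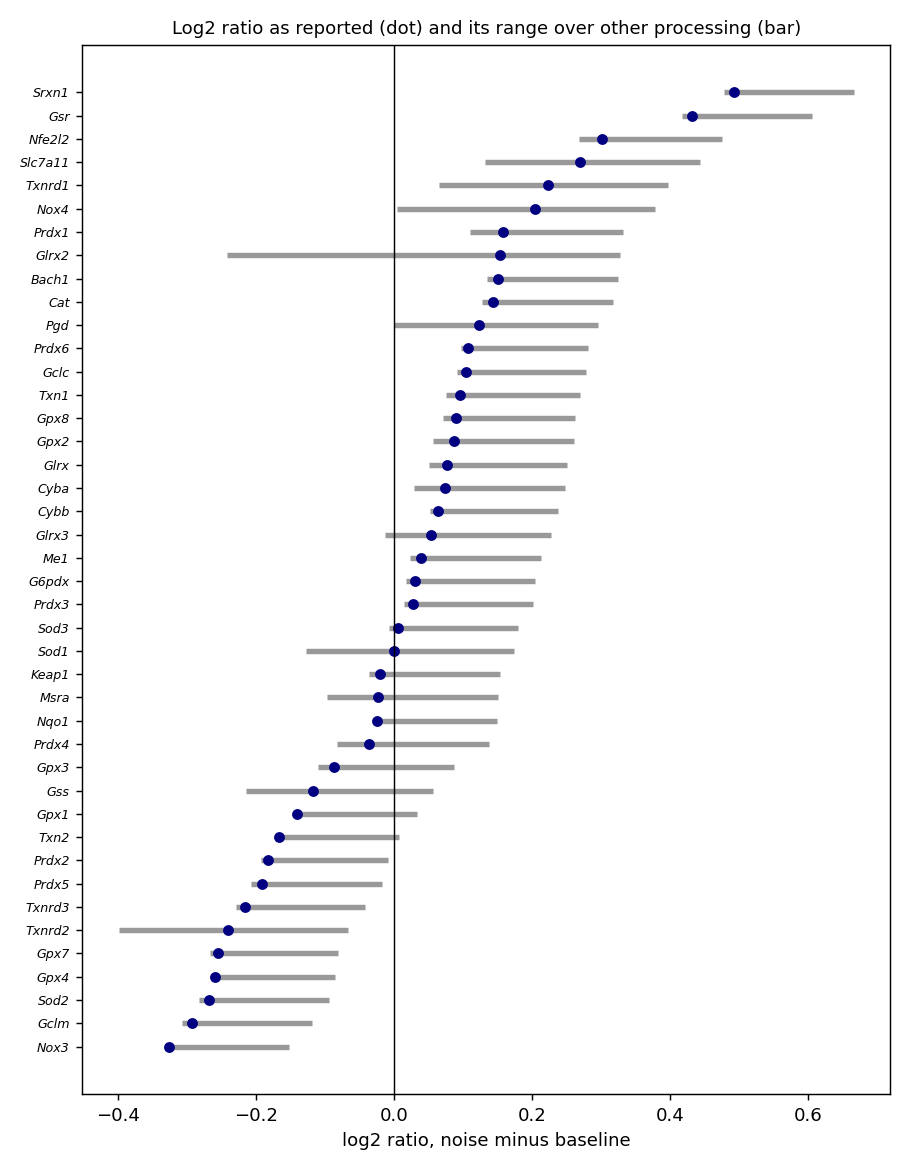
Log2 ratio (noise minus baseline, x axis) of each member as reported (dot) and its lowest to highest value over 12 processing alternatives and the reported one (bar), ordered by the reported value. Bars reach furthest right with spike-in scaling, and Glrx2 has the widest bar, down to -0.24.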

How the data were processed

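Total RNA was labelled with Cy3 and hybridised to 1-colour Agilent arrays, 1 per sample. Per the file headers, the deposited spot intensity values come from Agilent Feature Extraction 11.5.1.1, background-subtracted and detrended within an array and not scaled between arrays. Both arrays lay on 1 slide and were read in 1 scan. A value table deposited by the authors, in log2, equalled log2 of the processed signal, floored at 1, minus 8.30 (noise) or 8.12 (baseline), to within 0.01. Its column medians were -2.81 and -2.79 and its column 75th percentiles -0.0001 and -5e-05. From that equality and those percentiles, its scale, centring and direction were those used here.

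Outlier spots (77 and 58 non-control spots) were left out and repeat spots averaged as log2, which left 56590 probes on both arrays, of which 41647 were well above background on both. No spot was saturated. Each array's 75th percentile was subtracted. A gene took the median ratio of its measured probes, with names from the array design, matched exactly. With 1 array per group the number of arrays limits the precision and no test was possible. Sizes of 2-fold, 1.5-fold and 2 scanner errors replaced it, the last added after the values were seen. All members are accounted for. Of each pathway list, genes past 2-fold and up to 3 others by size were named, and of each marker list up to 2. The values of 1 gene that this rule names are not reported here. A few more, given as examples of a list, were chosen after their values were seen. The members and lists were chosen with earlier results of these data known. Steps were tested on simulated data. Python 3.11.15, pandas 2.3.3, R 4.3.3 and limma 3.58.1 were used. Alternatives covered normexp background (offset 50), median, quantile, spike-in and loess scaling, no filter or a stricter filter on dim probes, the brightest or mean probe, the authors' table and outlier spots kept. RefSeq mRNA probes alone were added after the values were seen.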

Additional observations from a re-analysis of the deposited data

How the results depend on the processing

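No member was past 2-fold under any of the 12 alternatives. Past 1.5-fold there was none either, except with spike-in scaling, under which there were 2, Srxn1 at 0.67 and Gsr at 0.61, by the shift of 0.17 that this scaling adds to every gene. The 8 spike-in probes themselves differed between the arrays by -0.20 to 0.40. Of 503 member values under alternatives, 502 moved by less than the SD between probes of a gene, and the exception was Glrx2 with its brightest probe (-0.24). RefSeq mRNA probes alone gave no value for Nox4. The median of the members ranged from 0.017 to 0.21. Over all genes, 2125 were past 1.5-fold, against 494 after normexp correction, 5149 unfiltered and 1265 from RefSeq mRNA probes alone. Normexp correction put Hmox1 at 3.56, Maff at 1.02 and the pituitary marker median at -1.73, and Hmox1 stood at 2.62 unfiltered. No paired analysis was possible because there was a single array per condition, and no replicate could be left out. Signals not well above background on 3 of 4 Nox4 probes limit that gene.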
